A study of Mus musculus with 6 samples.

Results

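Respiratory complexes II to V and cytochrome c were represented by 41 of the 12393 genes measured: 4 genes of complex II, 9 of complex III, cytochrome c, 10 of complex IV and 17 of complex V. They were chosen by gene symbol, as Sdha to Sdhd, Cyc1, Cycs and the symbols starting with Uqcr, Atp5 or Cox4 to Cox8. This choice was made with earlier results of these data known. The muscle and liver isoform genes Cox6a1, Cox6a2, Cox7a1, Cox7a2, Cox8a and Cox8b were left out of the set. Liver RNA came from 6 mice on a C57 background labelled Ppara KO, that is, lacking the nuclear receptor PPAR-alpha, all 1 month old. TFEB, a transcription factor that activates lysosomal and autophagy genes, had been delivered to 3 of them with an adenoviral vector and overexpressed in the liver, per the labels, while the other 3 were not injected. Every animal, control or treated, was a Ppara knockout, so no liver with an intact Ppara gene entered the comparison. The control livers received no vector, so the part of TFEB and that of the vector or the injection cannot be told apart. No source used here names the promoter of the vector. The labels call the samples biological replicates, numbered 1 to 3 in each group, and the livers are called control 1 to 3 and injected liver 1 to 3 below.

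The respiratory chain of the inner mitochondrial membrane passes electrons from fuel oxidation to oxygen and pumps protons as it does so. Complex II, succinate dehydrogenase, is also an enzyme of the citric acid cycle and pumps no protons; it hands electrons to ubiquinone. Complex III moves them on to cytochrome c, complex IV from cytochrome c to oxygen, and complex V, ATP synthase, lets the protons flow back and makes ATP. In liver this machinery carries the energy supply for glucose and urea synthesis and consumes the electrons set free by fatty acid oxidation. All members here are nuclear genes, while the catalytic centres of complex IV and parts of complexes III and V are encoded in mitochondrial DNA and were not analysed here.

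Levels are log2 values as deposited by the authors, after RMA, a procedure that sets all arrays to one distribution of values. A change is the mean of the injected minus the mean of the not-injected arrays, given ± SE from limma, and "rose" is used of a gene with a Benjamini-Hochberg adjusted p under 0.05 over all 12393 genes. Arrays of the same group correlated at 0.995 or more across genes and arrays of different groups at 0.989 to 0.993. The Tfeb probe set changed by 0.04 ± 0.07 (limma, adjusted p = 0.777) and that of Ppara by 0.13 ± 0.05 (adjusted p = 0.149). The species of the vector's TFEB and the deleted stretch of Ppara are unstated, so these values are no check of the groups. Of 8 measured hepatocyte markers 0 passed the test in either direction; the smallest p was that of the urea cycle gene Cps1 (-0.14 ± 0.05, adjusted p = 0.0905). Alb, for albumin, read 15.02 in the controls and 14.95 in the injected livers.

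Across the respiratory set, 19 of 41 genes rose and 0 fell in the TFEB-injected livers. Of all genes, 9.99% were called higher and 7.92% lower. The median log2 change of the set was 0.15, or 1.11-fold, against -0.01 over all genes, and the changes lay between -0.12 for Cox8c and 0.38 for Atp5a1 on the brightest probe set of each gene. In 33 of the 41 genes each injected liver was above each not-injected one, and in 0 below; over all genes these shares were 18.2% and 18.9%. The called members ran through every complex, with 3 of 4 genes in complex II, 5 of 9 in complex III, cytochrome c, 4 of 10 in complex IV and 6 of 17 in complex V. Complex medians were 0.22 for complex II, 0.20 for complex III, 0.12 for complex IV and 0.13 for complex V. Most members are bright on these arrays, with 37 among the 1240 genes of highest level. Of those 1240 genes 18.5% were called higher, with a median change of -0.01, and all 19 called members were among the 37.

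**Figure D1:**
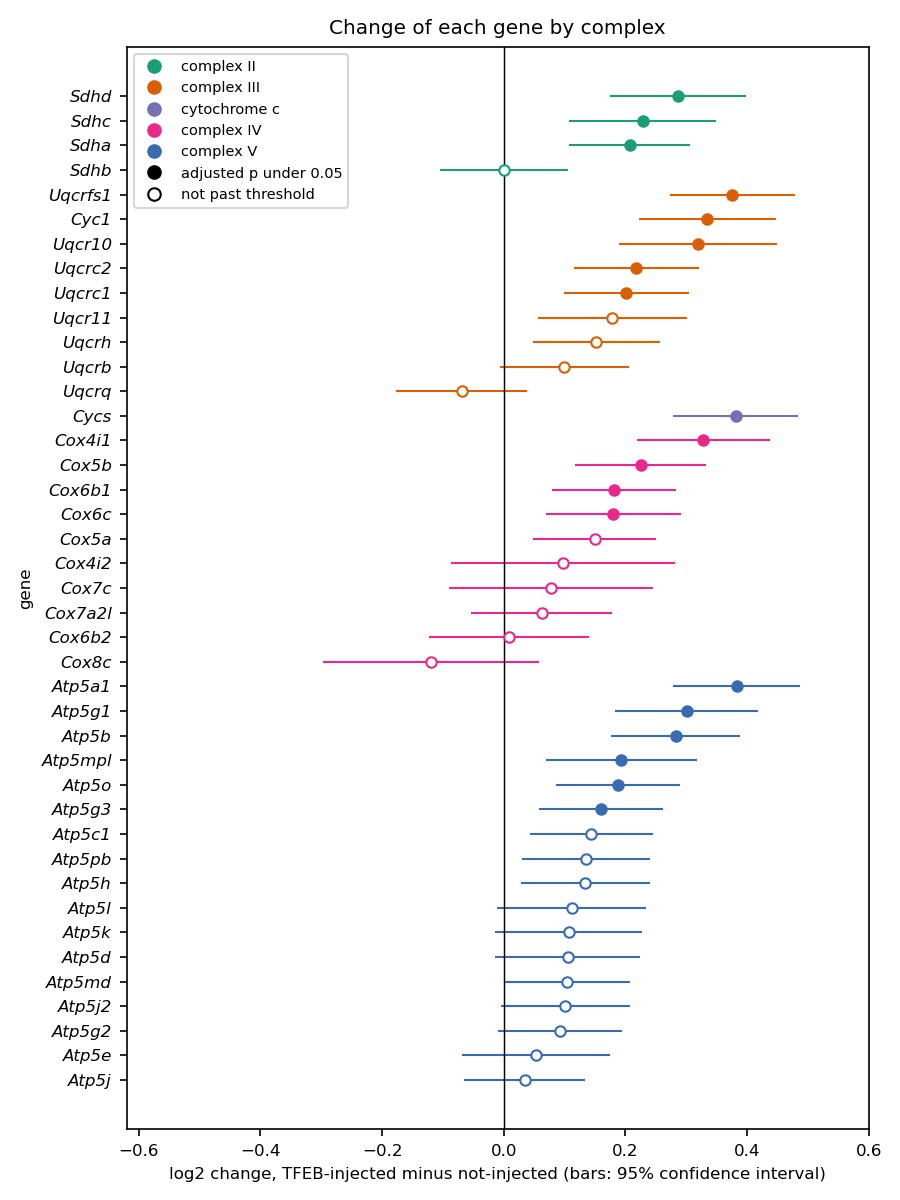
Log2 change (TFEB-injected minus not-injected, x axis) of each of the 41 genes, in the colour of its complex, with the 95% confidence interval from limma; filled points have an adjusted p under 0.05 over all genes. The points lie between -0.12 and 0.38, and 19 are filled, all of them to the right of 0.

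The number of calls depended on single arrays. Omitting control 1, 2 or 3 gave 10, 11 or 12 called members in place of 19. Omitting injected liver 1, 2 or 3 gave 19, 9 or 16. Over all genes, 746, 800 and 855 were called higher without control 1, 2 and 3, against 1238 with all arrays. Without injected liver 1, 2 and 3 these numbers were 1232, 722 and 1344. The 9 genes that passed in every one of these fits were Sdhd, Cyc1, Uqcr10, Uqcrfs1, Cycs, Cox4i1, Atp5a1, Atp5b and Atp5g1, and they also passed at an adjusted p of 0.01 and under each other setting tried. Centring each array on its median changed the split of all calls from 1238 higher and 981 lower to 1060 higher and 1352 lower, and 16 members were then called higher and 0 lower. After cyclic loess the members' counts were 25 and 0, beside 1258 higher and 958 lower over all genes.

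Some markers of other liver cells moved as well. Of 9 markers of macrophages and Kupffer cells 6 rose and 0 fell, beside 9.99% higher and 7.92% lower over all genes. The 9 markers had a median of 0.50 and were led by Cd5l (0.63 ± 0.05, limma, adjusted p = 2.37e-04) and Cd14 (0.75 ± 0.09, adjusted p = 0.00136). Their summed linear level was 6808 to 7038 in the controls and 9102 to 11038 in the injected livers. No marker is at 0 after RMA, but Marco, Cd68 and Cd14 lay below the median level of all genes in the controls. Of 6 sinusoidal endothelial markers Stab2 (1.42 ± 0.05) and Lyve1 (0.89 ± 0.07) rose and 0 fell. Their sums were 2554 to 2717 in the controls and 3216 to 3826 in the injected livers. Kdr (-0.09 ± 0.06), Cdh5 (-0.03 ± 0.06), Pecam1 (-0.01 ± 0.10) and Fcgr2b (0.08 ± 0.13) did not pass. The median of the 6 was 0.03, with 3 positive and 3 negative changes, so the sums do not describe the markers as a set. Of 4 cholangiocyte markers Sox9 fell by 0.33 ± 0.05, with sums of 289 to 302 and 248 to 253. All 4 lay below the median level of all genes, so the sums and the Sox9 call rest on dim signals. Of 3 erythroid markers Alas2 fell by 0.81 ± 0.07, while Hba-a1 (0.03 ± 0.06) and Slc4a1 (0.07 ± 0.07) did not pass. Hba-a1 and Slc4a1 lay below the median level of all genes. The part of these cells in the respiratory gene changes was not tested. In RNA from whole liver, a change in the number of cells of a type and a change in RNA per cell cannot be told apart.

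**Figure D2:**
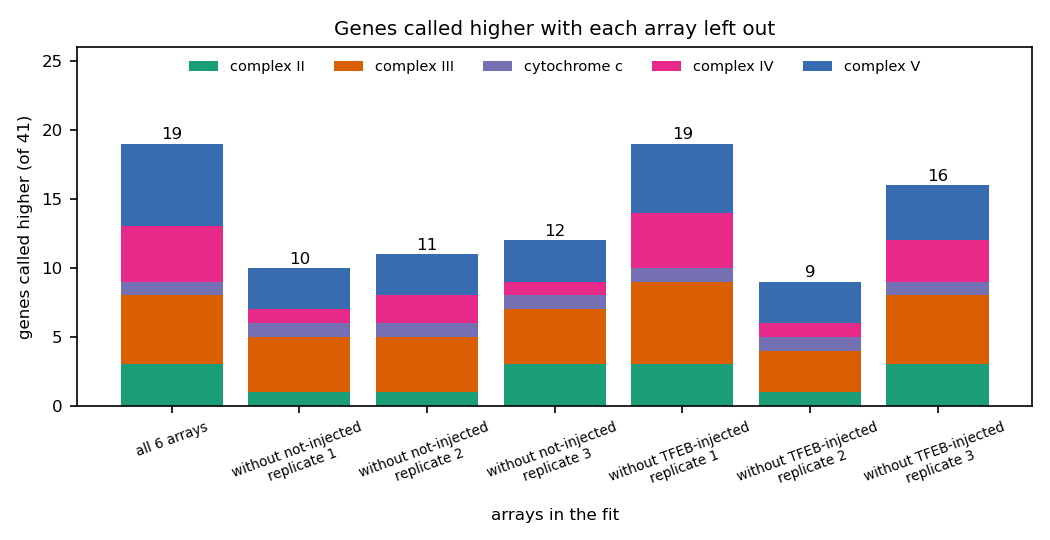
Number of the 41 genes called higher (adjusted p under 0.05, y axis), stacked by complex, in the fit of all 6 arrays and with each array left out in turn. The total is 19 with all arrays and ranges from 9 to 19 with 1 array left out; cytochrome c is counted in each fit.

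In complex II, the flavoprotein gene and both membrane anchor genes rose, whereas the iron-sulfur subunit gene did not pass the test. Sdha, for the flavoprotein that oxidises succinate, read 12.37, 12.37 and 12.37 in the not-injected livers and 12.55, 12.59 and 12.60 in the injected ones. The groups did not overlap, and Sdha rose by 0.21 ± 0.04 (limma, adjusted p = 0.0148), or 1.15-fold. Sdhd, for an anchor subunit that binds heme and ubiquinone in the membrane, read 11.85, 11.84 and 11.88 without injection and 12.08, 12.16 and 12.19 with it. All injected livers were above the controls, and Sdhd rose by 0.29 ± 0.05 (adjusted p = 0.00635). Sdhc, for the other anchor, read 10.75, 10.73 and 10.84 against 10.95, 11.05 and 11.00, again without overlap, and rose by 0.23 ± 0.05 (adjusted p = 0.0218). Sdhb carries the iron-sulfur clusters that link the flavin to the membrane. It read 12.69, 12.75 and 12.76 in the not-injected and 12.71, 12.73 and 12.76 in the injected livers. These ranges overlapped almost entirely, with a difference of 0.00 ± 0.04 (95% confidence interval -0.10 to 0.11; adjusted p = 0.996). Omitting control 1, control 2 or injected liver 2 ended the calls of Sdha and Sdhc, at adjusted p of at most 0.0689 and 0.0939, and left Sdhd as the 1 called gene of complex II.

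In complex III, all 4 genes for the electron-carrying and core proteins rose, and 1 of the 5 genes for small subunits did; this grouping by role was made after the values were seen. Uqcrfs1 encodes the Rieske iron-sulfur protein, which takes electrons from ubiquinol. Its level was 12.19, 12.23 and 12.23 in not-injected and 12.56, 12.62 and 12.61 in injected livers. The groups did not overlap, and Uqcrfs1 rose by 0.38 ± 0.04 (limma, adjusted p = 0.00144), or 1.30-fold. Cyc1, for the cytochrome that passes the electrons to cytochrome c, read 12.20, 12.22 and 12.14 against 12.49, 12.51 and 12.57. It rose by 0.33 ± 0.05 (adjusted p = 0.00351) with no overlap of the groups. The core protein gene Uqcrc1 read 11.60, 11.64 and 11.58 without and 11.78, 11.83 and 11.80 with injection, and rose by 0.20 ± 0.04 (adjusted p = 0.0191). Its partner Uqcrc2 rose by 0.22 ± 0.04 (adjusted p = 0.0144).

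Among the small complex III subunits, Uqcr10 was the 1 that passed, with 11.78, 11.78 and 11.76 in the controls and 12.02, 12.07 and 12.19 in the injected livers (0.32 ± 0.06; limma, adjusted p = 0.00768). Uqcr11 (0.18 ± 0.05) and the hinge protein gene Uqcrh (0.15 ± 0.04) missed the threshold at adjusted p of 0.0543 and 0.0546, although no injected liver overlapped with a control. Uqcrb, for a ubiquinone-binding subunit, changed by 0.10 ± 0.05 (adjusted p = 0.181). Uqcrq went the other way, from 12.76, 12.74 and 12.77 to 12.64, 12.68 and 12.74. Those groups overlapped at the edge, and its difference was -0.07 ± 0.05 (95% confidence interval -0.18 to 0.04; adjusted p = 0.359). Omitting control 2 or injected liver 2 ended the Uqcrc2 call (adjusted p of at most 0.0588), and omitting control 1, control 3 or injected liver 2 ended that of Uqcrc1 (at most 0.0882). The complex III count fell to 3 when injected liver 2 was omitted.

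Cytochrome c, the soluble carrier between complexes III and IV, changed by an amount near the top of the set's range. Cycs encodes the somatic form. It read 13.29, 13.25 and 13.27 in the not-injected and 13.68, 13.66 and 13.62 in the injected livers. The groups did not overlap, and Cycs rose by 0.38 ± 0.04 (limma, adjusted p = 0.00139), or 1.30-fold. Its other probe sets gave 0.52 ± 0.05 and 0.53 ± 0.05.

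In complex IV, cytochrome c oxidase, 4 of the 6 genes for widely expressed subunits rose. Of the 3 tissue-restricted isoform genes in the set 0 passed. This split too was made after the values were seen. It does not cover tissue-restricted isoform genes left out of the set, of which Cox7a1 and Cox8b rose and Cox6a2 did not pass, as given below. Cox4i1 encodes the common form of subunit IV, through which ATP regulates the enzyme. It read 12.92, 12.86 and 12.91 in not-injected and 13.18, 13.23 and 13.26 in injected livers, rising by 0.33 ± 0.05 (limma, adjusted p = 0.00328) with no overlap. Cox5b, for a zinc-binding subunit on the matrix side, read 13.59, 13.63 and 13.60 against 13.79, 13.83 and 13.88. It rose by 0.23 ± 0.05 (adjusted p = 0.0147). Cox6b1 (0.18 ± 0.04) and Cox6c (0.18 ± 0.05), for small supernumerary subunits, rose by less. Cox5a, for the neighbour of subunit IV, read 13.54, 13.52 and 13.57 against 13.69, 13.72 and 13.67. All injected livers were above the controls, but the change of 0.15 ± 0.04 missed the threshold (adjusted p = 0.0522).

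The remaining complex IV genes did not pass the test, and their groups overlapped. Cox7a2l is known for joining complexes III and IV into supercomplexes. It read 11.07, 11.12 and 11.12 in the controls and 11.15, 11.12 and 11.23 in the injected livers, which overlapped (0.06 ± 0.05; limma, adjusted p = 0.441). Cox4i2, a form of subunit IV typical of lung, and Cox6b2, a testis form, stayed below 6.5 on every array, under the median level of all genes (7.34), with changes of 0.10 ± 0.08 and 0.01 ± 0.06. The testis form Cox8c read 8.63, 8.67 and 8.47 against 8.40, 8.42 and 8.59, which overlapped, and gave -0.12 ± 0.08 (adjusted p = 0.336). For Cox7c, a subunit of every tissue's oxidase, the brighter of its probe sets read 6.34 to 6.57, also under the median of all genes, so its change of 0.08 ± 0.07 rests on a dim signal. Cox4i1 was the 1 gene of complex IV still called when control 1, control 3 or injected liver 2 was omitted, and the count was 2 when control 2 was. In these fits the adjusted p of Cox5b, Cox6b1 and Cox6c reached 0.0629, 0.105 and 0.130. Averaging all probe sets of a gene also ended the Cox5b call (0.13, adjusted p = 0.0896), and median centring that of Cox6c (0.15, adjusted p = 0.0622).

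**Figure D3:**
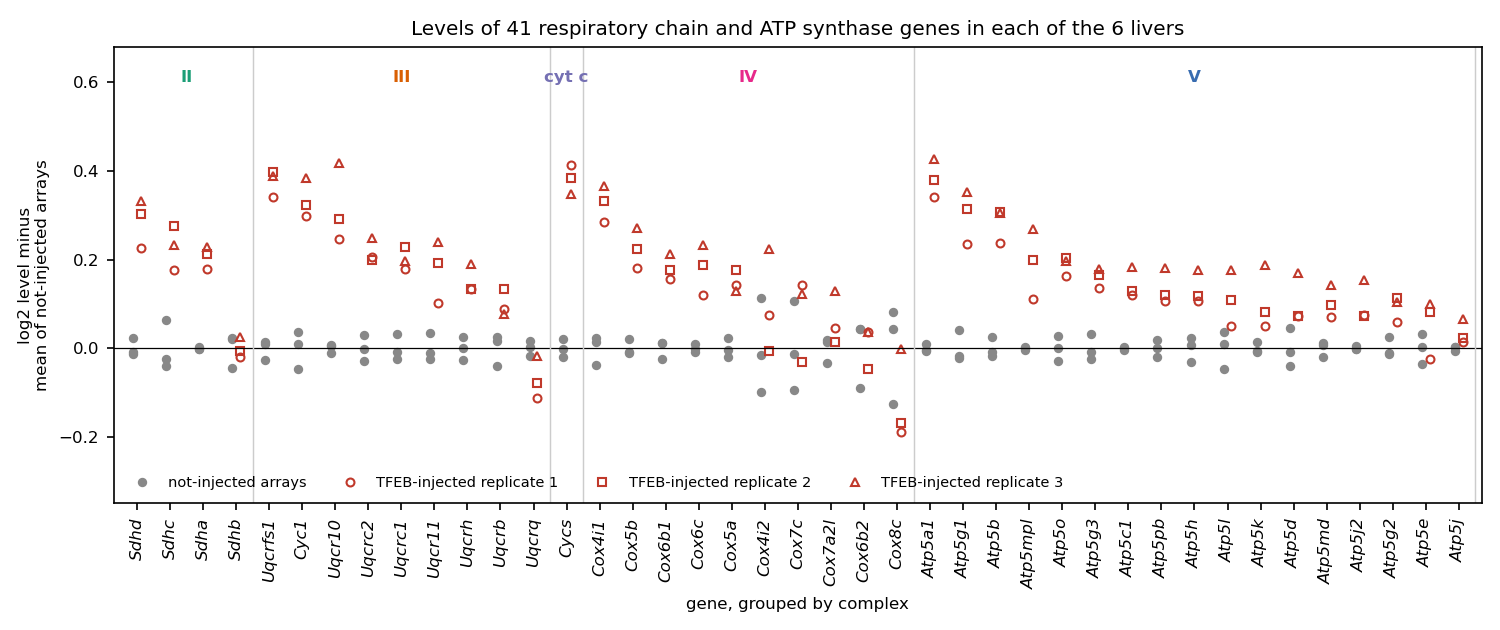
Level of each gene on each array, as the log2 difference from the mean of the 3 not-injected arrays (y axis), for the 41 genes grouped by complex and ordered by change (x axis); grey points are not-injected livers and red symbols the 3 TFEB-injected livers. In 33 genes all red symbols lie above all grey points; Sdhb, Uqcrq and the dim Cox isoforms are among the 8 where they overlap.

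In complex V, 6 of 17 genes rose: those of both main subunits of the catalytic head, 2 of the 3 for the c ring, and 1 each for the peripheral stalk and the small membrane subunits. This grouping was also made after the values were seen. Atp5a1 and Atp5b encode the alpha and beta subunits, between which ATP is formed. Atp5a1 read 12.77, 12.79 and 12.77 in not-injected and 13.12, 13.16 and 13.20 in injected livers, a rise of 0.38 ± 0.04 (limma, adjusted p = 0.00144), or 1.30-fold. Atp5b, the catalytic one, read 13.18, 13.19 and 13.23 against 13.44, 13.51 and 13.51, and rose by 0.28 ± 0.05 (adjusted p = 0.00536). In both genes every injected liver stood clear of the controls. The other head and central stalk genes did not pass: Atp5c1, for the rotating gamma subunit, changed by 0.14 ± 0.04 (adjusted p = 0.0593), Atp5d by 0.10 ± 0.05 and Atp5e by 0.05 ± 0.05.

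The c ring, which turns as protons pass, is built from identical copies of subunit c, and the 3 genes Atp5g1, Atp5g2 and Atp5g3 encode the same mature protein behind different import signals. Atp5g1 read 12.11, 12.11 and 12.17 in the controls and 12.36, 12.44 and 12.48 in the injected livers, and rose by 0.30 ± 0.05 (limma, adjusted p = 0.00655). Atp5g3 read 13.62, 13.60 and 13.66 against 13.76, 13.79 and 13.81 and rose by 0.16 ± 0.04 (adjusted p = 0.0431). Atp5g2 read 11.06, 11.06 and 11.10 against 11.13, 11.19 and 11.18, a change of 0.09 ± 0.04 that did not pass (95% confidence interval -0.01 to 0.19; adjusted p = 0.199). In each of the 3 genes the groups did not overlap. Whether these changes differ from each other was not tested. Omitting any 1 of the 6 arrays ended the Atp5g3 call (adjusted p of at most 0.141), as did median centring (0.0812) and fitting every probe set (0.0551).

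Of the 4 peripheral stalk genes, which hold the head still against the rotor, Atp5o passed. It encodes the subunit at which oligomycin sensitivity is conferred and rose by 0.19 ± 0.04 (limma, adjusted p = 0.0238), from 12.24, 12.22 and 12.27 to 12.41, 12.45 and 12.44. Atp5pb (0.14 ± 0.04), Atp5h (0.13 ± 0.05) and Atp5j (0.03 ± 0.04) had adjusted p of 0.0803, 0.0851 and 0.639. Of the 5 small membrane subunit genes, Atp5mpl, for a small proteolipid, was the 1 called, at 0.19 ± 0.05 (adjusted p = 0.0450); its injected livers were at 11.82, 11.91 and 11.98 and its controls at 11.71. Atp5j2, Atp5k, Atp5l and Atp5md, for subunits that help ATP synthase form dimers or stay stable, changed by 0.10 to 0.11 with adjusted p between 0.158 and 0.206. Each of these 4 had all injected livers above all controls. Omitting any array other than injected liver 1 ended the call of Atp5mpl (adjusted p of at most 0.139). Omitting any control or injected liver 2 ended that of Atp5o (at most 0.0998). Median centring and fitting every probe set also ended the Atp5mpl call (adjusted p = 0.0670 and 0.0531), and averaging a gene's probe sets that of Atp5o (0.14, adjusted p = 0.0563). The complex V count fell to 3 when any control or injected liver 2 was omitted.

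Several genes were measured by more than 1 probe set, which allows a repeat within the same RNA. The 41 genes had 76 probe sets, and 23 genes had several. Of the 64 probe sets at or above the median level of all genes, 62 had a positive change; the exceptions were the lead probe sets of Uqcrq and Cox8c. In 7 of the 19 genes with several such probe sets, the brightest one gave the smaller change. Sdha gave 0.33 ± 0.05 on its other probe set against 0.21, Atp5pb 0.34 ± 0.05 against 0.14, and Cox5a up to 0.28 ± 0.05 against 0.15. The Atp5pb and Cox5a probe sets passed the test when all probe sets were fitted (limma, adjusted p = 0.00456 and 0.00955), while the lead ones did not (0.0984 and 0.0662). In the other direction, the second Sdhc probe set gave 0.09 ± 0.05 and that of Atp5o 0.10 ± 0.05, neither past the threshold. A dim Cox5b probe set near 6.4 fell by 0.17 ± 0.05 (adjusted p = 0.0413), against the rise on the 4 bright ones.

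The 3 injected livers differed from each other. Injected liver 3 had the highest level of the 3 in 31 of the 41 genes, and injected liver 1 the lowest in 31; over all genes these shares were 44.2% and 38.1%. Median differences from the control mean were 0.12, 0.16 and 0.19 for injected livers 1, 2 and 3. Cycs went the other way, with its highest value in injected liver 1. Of the 9 macrophage markers, 7 were lowest in injected liver 3 among the injected ones.

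Of 31 measured genes for assembly factors, which build the complexes, 5 rose and 2 fell, beside 9.99% higher and 7.92% lower over all genes, with a median change of 0.03. Tmem70, needed to assemble ATP synthase, rose from 9.47 to 9.78 (0.31 ± 0.04; limma, adjusted p = 0.00300) and kept its call without any single array. Ttc19, for a complex III factor, rose by 0.21 ± 0.05 (adjusted p = 0.0356). Sco2, which delivers copper to complex IV, fell by 0.27 ± 0.06 (adjusted p = 0.0167), and Cox16, for another complex IV factor, fell by 0.17 ± 0.04 (adjusted p = 0.0323). Omitting 1 array left 1 to 3 factors called higher. The calls of Ttc19, Sco2 and Cox16 each ended when control 1 or control 3 was omitted, with adjusted p reaching 0.119, 0.0692 and 0.116. Those of Ttc19 and Cox16 also ended when injected liver 1 or 2 was omitted, and further when injected liver 3 (Ttc19) or control 2 (Cox16) was. Median centring ended the Ttc19 call too, and averaging a gene's probe sets that of Cox16.

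Among 11 measured regulators of respiratory genes, 2 rose and 0 fell, beside 9.99% higher and 7.92% lower over all genes. Ppargc1a, for the coactivator PGC-1 alpha, read 7.43, 7.44 and 7.46 in the controls and 8.93, 9.73 and 10.42 in the injected livers, with no overlap and a rise of 2.25 ± 0.32 (limma, adjusted p = 0.00330). Esrra, for the estrogen-related receptor with which PGC-1 alpha acts, read 8.10, 8.15 and 8.11 against 8.40, 8.48 and 8.62 and rose by 0.38 ± 0.06 (adjusted p = 0.00651). In both genes injected liver 3 was the highest, which held for 31 of the 41 members and for 44.2% of all genes. A link between these 2 genes and the members was not tested. The factor genes Nrf1 (-0.05 ± 0.08), Gabpa (-0.14 ± 0.04) and Tfam (0.14 ± 0.05) did not pass. For Gabpa (limma, adjusted p = 0.0530) every injected liver was below every control, and for Tfam (adjusted p = 0.0891) every one was above. Of the 6 isoform genes outside the set, Cox7a1 and Cox8b, the muscle and brown fat forms, rose (limma, adjusted p = 5.49e-05 and 3.69e-04). Cox7a1 read 5.37, 5.53 and 5.34 in the controls and 8.53, 8.92 and 9.29 in the injected livers, and Cox8b 5.77, 5.90 and 5.76 against 8.44, 9.16 and 9.71. Both control levels lay under the median of all genes (7.34), so no fold is given against these dim signals. The liver forms Cox7a2 and Cox8a rose by 0.21 ± 0.04 and 0.27 ± 0.05, calls that each ended when control 1 or injected liver 2 was omitted (adjusted p reaching 0.0692 and 0.0665). Averaging a gene's probe sets also ended the Cox8a call (0.15, adjusted p = 0.0704). Cox6a1 (0.15 ± 0.04) and Cox6a2 (-0.11 ± 0.05) did not pass. Of 11 muscle markers 0 rose and 1, Mb for myoglobin, fell (-0.20 ± 0.05), and their summed linear level was 497 to 538 without and 487 to 506 with injection. All 11 lay below the median of all genes, with Mb at 6.08 and 5.88 in the group means. Their sums and the Mb call therefore rest on dim signals. Of 7 brown adipocyte markers Ppargc1a and Cidec (0.43 ± 0.11) rose and Elovl3 fell by 0.95 ± 0.05, with sums of 4591 to 4797 and 2999 to 3682. Elovl3, at 12.07 and 11.12 in the group means, was the brightest of these markers. The fall in the sums therefore reflects Elovl3 and not the markers as a set. All of them but Elovl3 and Ppargc1a lay below the median of all genes. The Cidec call, from 4.57 in the control mean, thus rests on a dim signal. Ucp1, the defining one, read 4.98 and 4.83 in the group means.

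Complex I, the proton pump that feeds the chain from NADH, was measured by 34 subunit genes. Of these 16 rose and 0 fell, with a median of 0.15, beside 19 of 41 and 0.15 for complexes II to V. Over all genes 9.99% were called higher and 7.92% lower, with a median change of -0.01. Omitting 1 array gave 3 to 13 complex I genes called higher, with 3 when control 2 was omitted. The values of complex I and of complexes II to V come from the same 6 arrays. Ndufs1, for the largest subunit, rose by 0.50 ± 0.05 (limma, adjusted p = 8.26e-04), and Ndufv1, for the subunit that oxidises NADH, by 0.37 ± 0.06.

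**Figure D4:**
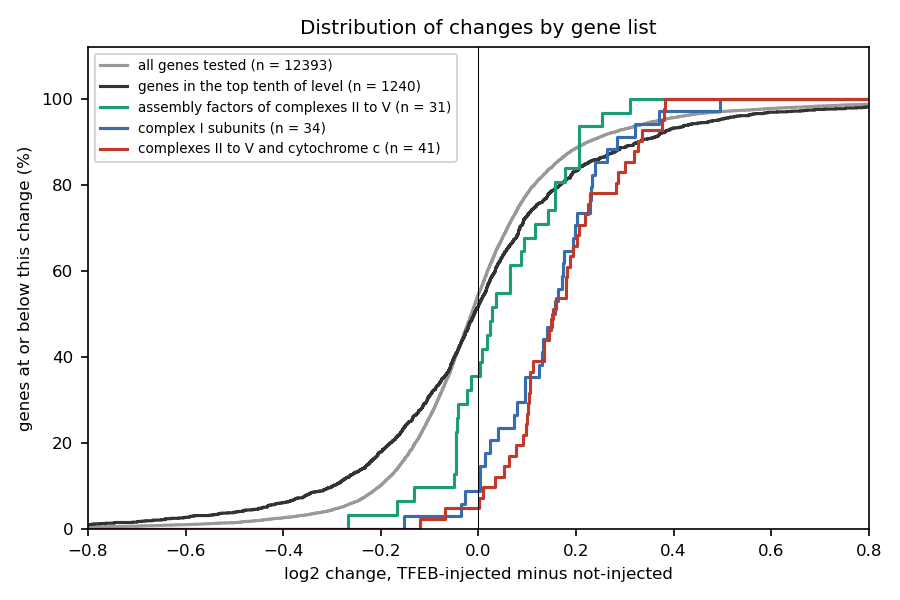
Share of genes (%, y axis) with a log2 change at or below the value on the x axis, for the 41 genes of complexes II to V and cytochrome c, 34 complex I subunit genes, 31 assembly factor genes, the 1240 genes of highest level and all 12393 genes. The median is 0.15 for complex I and for complexes II to V, 0.03 for the assembly factors and -0.01 for all genes.

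Promoter sequence is shown to describe the letters near the start sites of called and uncalled members. RefSeq promoter windows (GRCm38.p6, 250 bases before to 50 after the start site) matched 30 of the 41 genes by symbol, 12 of them called. Each motif was searched on both strands. A gene was counted once if any of its windows held the motif, and some genes, such as Atp5c1, have more than 1 window. The site of the factor NRF1 was found for 9 of the 30 genes (30%), against 9.36% of the 9887 tested genes with a window. It was held by 5 of the 12 called genes and 4 of the 18 others. Of those called genes only Sdhd kept its call with each array left out in turn. Atp5g3, shown for 3 motifs here, lost its call whichever array was omitted. The site letters are in capitals in the stretches of the 5 called genes, each written along its gene's strand.
Sdha, chr13:74350231-74350260, minus strand: gcgactcggtGCGCAAGCGCagtctgtcgc
Sdhd, chr9:50603909-50603938, minus strand: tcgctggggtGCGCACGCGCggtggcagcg
Uqcrc1, chr9:108936668-108936697, plus strand: actccgctctGCGCATGCGCagcgcggctc
Atp5g3, chr2:73911295-73911324, minus strand: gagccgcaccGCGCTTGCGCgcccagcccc
Atp5o, chr16:91931602-91931631, minus strand: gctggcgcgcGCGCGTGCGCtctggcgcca
The Sdha window held 3 such matches and that of Uqcrc1 2, of which 1 each is shown. The letters TCAAGGTCA, bound by estrogen-related receptors, occurred for 2 of the 30 genes, both of them called, against 0.344% of tested genes.
Sdhd, chr9:50603800-50603823, minus strand: ggttgtagagTGACCTTGAgccct
Atp5g3, chr2:73911360-73911388, minus strand: tgttacaaagTGACCTTGAgcgtcttccc
Both matches are on the opposite strand, so the capitals read TGACCTTGA. The E-box CACGTG, the core of TFEB's site, was found for 4 of 30 genes (13.3%), against 10.8% of tested genes, and 2 of those 4 were called.
Atp5g1, chr11:96075658-96075687, minus strand: agggactccgaaCACGTGggtgggggagct
Atp5g3, chr2:73911547-73911576, minus strand: acccctgcctggCACGTGcaaggagcgagg
The longer TFEB-type palindrome, which contains the E-box, was found for 0 of the 30 genes and 0.556% of tested genes. CCGGAAG, the core of ETS sites such as that of GABPA, was found for 11 genes (36.7%, against 16.3%), 2 of them called and 9 not. CCAAT was found for 16 (53.3%, against 42.3%) and the YY1 letters GCCATNTTG for 3 (10%, against 3.92%). A match is a description of the letters, and no binding was measured here.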

How the data were processed

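Total liver RNA of 6 mice was hybridised as biotin-labelled cRNA to Affymetrix arrays, per the labels' protocols. The deposited log2 values (3.08 to 15.20) were made by the authors with RMA in the affy package, per the submitters' processing notes; no version is named there. Quantile normalization hides overall shifts in RNA content. Of 22690 probe sets, 64 were controls, 20393 had 1 gene symbol, 691 several and 1606 none. The 20380 non-control ones with 1 symbol were used, with the brightest probe set per gene (highest mean over the arrays). limma 3.58.1 in R 4.3.3 (lmFit, eBayes) was fitted to 12393 genes and tested on simulated data. Figures were drawn with matplotlib 3.10.9. The number of arrays limits the precision. All members were named, with values per array for those fixed by the naming rule (catalytic, anchor and subunit c genes and the largest changes); of other lists, the 2 called genes with the smallest p per direction, or 1 where none passed; and Tfeb and Ppara. The values per array of Uqcr10, Atp5o and Atp5mpl were given outside that rule. Alb, Marco, Cd68, Kdr, Cdh5, Pecam1, Fcgr2b, Hba-a1, Slc4a1, Ucp1, Nrf1, Gabpa, Tfam and the remaining Cox isoforms were added after their values were seen. Alternatives were other probe set rules, centring, loess, a level filter, another prior, array weights, a replicate block, a stricter threshold and each array left out. The members, lists and tests were chosen with earlier results of these data known.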

Additional observations from a re-analysis of the deposited data

How the results depend on the processing

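No alternative reversed a called gene, and the median change of the set stayed between 0.12 and 0.18. With array weights, whose estimation stopped before full convergence, 30 members were called higher and 1 (Cox8c, complex IV) lower, with 8 in complex III and 13 in complex V; over all genes 2717 were higher and 3137 lower. An intensity trend with a robust prior gave 28 members, 8 in complex III and 11 in complex V, with 1407 higher and 1106 lower over all genes. At an adjusted p under 0.01, 9 members were called (1, 3, 1 and 3 in complexes II, III, IV and V), with 645 higher and 408 lower over all genes. The replicate number as a block gave the same numbers of members, 9 in all and 1, 3, 1 and 3 by complex, with 923 higher and 610 lower over all genes. Deviations of same-numbered arrays from their group means correlated at 0.01, -0.13 and -0.11, and those of differently numbered ones at -0.04 to 0.16. With 3 arrays per group these values cannot show whether the numbers pair the mice. Without _s_at and _x_at probe sets the complex II median was 0.26, averaging each gene's probe sets put cytochrome c at 0.48, and without dim genes the complex IV median was 0.18.

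With 1 array left out, the members called higher numbered 9 to 19, with 1 to 3 in complex II, 3 to 6 in complex III, 1 to 4 in complex IV and 3 to 5 in complex V. Over all genes 722 to 1344 were higher and 507 to 1065 lower. Assembly factors called higher ranged from 1 (among others with median centring) to 12 (array weights), and those called lower from 0 to 3. Complex I subunits called higher ranged from 3 to 25 and those called lower from 0 to 1. Regulators called higher ranged from 2 to 4 and those called lower from 0 to 3 (array weights). The cause of these differences was not tested. The median ratio of SDs, injected over control, was 1.24 over all genes.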
